A study of Mus musculus with 8 samples.

Results

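The GABAergic interneuron lineage was followed through 10 genes: the homeobox factor genes Dlx1, Dlx2 and Dlx5, the LIM-homeobox factor gene Lhx6, the basic leucine zipper factor gene Maf, the GABA synthesis genes Gad1 and Gad2, the vesicular GABA transporter gene Slc32a1, and the neuropeptide genes Npy and Sst. They were chosen by symbol, matched through RefSeq accessions, and all 10 were found among the 20283 genes named on the array, on 13 of its 39429 gene probes. Their RNA was read in hand-dissected tissue of ICR mouse embryos at embryonic day 16: the germinal V/SVZ (ventricular and subventricular zone), where progenitors divide, and the CP (cortical plate), which young neurons enter after their last division. Each tissue had 4 samples, each on its own 1-colour array. The labels name no genotype or treatment. They do not state whether the samples were dissected from different embryos or litters, and p-values therefore cover only sample-to-sample spread, part or all of which could be technical.

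Most GABAergic neurons of the mouse cortex are not born there. They arise in the ganglionic eminences of the ventral telencephalon, where Dlx factors are switched on in progenitors and young neurons, and migrate tangentially into the cortex along routes that include the deep subventricular and intermediate zones and the marginal zone, before entering the plate. Lhx6 marks neurons of the medial ganglionic eminence and is needed for the somatostatin and parvalbumin classes. Gad1 and Gad2 encode the enzymes that make GABA from glutamate, and Slc32a1 the carrier that loads it into vesicles. In bulk tissue, a higher signal from more cells of a type cannot be told apart from more RNA per cell.

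Dlx1 and Dlx2 neighbour each other on opposite strands of chromosome 2, which also carries Gad1, Gad2, Slc32a1 and Lhx6, 6 of the 10 members in all. The 250 bases before the annotated start are shown for the neuropeptide genes Sst and Npy, which had the largest tissue differences, and for Dlx2 and Gad1, which went opposite ways. Sequences are from RefSeq, written 5′ to 3′, and capitals mark a match to 1 of the 4 motifs named first after the sequences. Those 4 were picked for display after the matches of all 10 motifs searched had been seen.
Sst (GRCm38.p6 chr16:23890845-23891094, minus strand): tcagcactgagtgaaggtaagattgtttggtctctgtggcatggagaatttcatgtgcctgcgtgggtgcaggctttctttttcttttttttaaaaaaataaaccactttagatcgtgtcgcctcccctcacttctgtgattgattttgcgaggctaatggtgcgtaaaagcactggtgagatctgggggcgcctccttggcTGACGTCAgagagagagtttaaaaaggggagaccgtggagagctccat
Npy (GRCm38.p6 chr6:49822460-49822709, plus strand): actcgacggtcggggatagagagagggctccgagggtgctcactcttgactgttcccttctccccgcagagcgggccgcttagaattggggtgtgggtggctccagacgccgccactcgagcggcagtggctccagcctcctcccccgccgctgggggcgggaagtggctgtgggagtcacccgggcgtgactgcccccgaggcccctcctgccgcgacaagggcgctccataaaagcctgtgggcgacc
Dlx2 (GRCm38.p6 chr2:71546755-71547004, minus strand): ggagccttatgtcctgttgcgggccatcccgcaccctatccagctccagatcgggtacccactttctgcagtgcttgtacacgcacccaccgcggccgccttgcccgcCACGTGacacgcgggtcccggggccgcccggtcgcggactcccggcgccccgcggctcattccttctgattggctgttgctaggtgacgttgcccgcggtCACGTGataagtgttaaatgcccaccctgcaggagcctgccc
Gad1 (GRCm38.p6 chr2:70561879-70562128, plus strand): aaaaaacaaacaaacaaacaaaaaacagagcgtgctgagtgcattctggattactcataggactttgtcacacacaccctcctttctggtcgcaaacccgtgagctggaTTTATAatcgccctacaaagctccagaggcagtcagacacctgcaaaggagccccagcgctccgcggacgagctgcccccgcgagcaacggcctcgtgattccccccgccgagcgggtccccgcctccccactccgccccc
RefSeq windows were at hand for 8 of the 10 members (10 windows, since Lhx6 has several starts), and both strands were searched. The cyclic AMP response element TGACGTCA was in the Sst window, 48 bases before the start, and in 1.55% of all 32851 windows. The E-box CACGTG was in the Dlx2 window, 142 and 42 bases before the start, against 6.02% of all windows. TATAAA was in the Gad1 window on the reverse strand, 141 bases before the start, against 12.4% of all windows. The homeodomain core TAATTA was in none of the 10 windows and in 4.84% of all windows. Of the other 6 motifs, TAATTG was in 1 Lhx6 window and in 7.17% of all windows. CAATTA is its reverse complement and gave the same matches. The short form TGACG, which lies within TGACGTCA, was in the Sst, Dlx2 and Gad2 windows (3 of 10, against 17.8% of all). GGGCGG was in 5 member windows (32.7% of all), CCAAT in 5 (33.8% of all) and CAGCTG in 1 Lhx6 window (13% of all). A match is a description of these letters only.

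The lineage genes did not all go one way, nor did the factor genes among them. The 3 Dlx genes were slightly higher in V/SVZ, by 1.19-fold to 1.29-fold. The genes of GABA synthesis and vesicular loading and Lhx6 were higher in CP by 1.26-fold to 2.37-fold, Sst by 3.82-fold and Npy by 38.0-fold, while Maf was not called. At an adjusted p under 0.05 (limma), calls were made for 11 of the 12 probes tested, of which 3 were higher in V/SVZ, the other 8 in CP. Over all 23858 probes tested, 79.7% were called, 35.3% with V/SVZ higher and 44.4% with CP higher, so a call by itself sets these genes apart from nothing. The median log2 difference (V/SVZ minus CP) of the 12 probes was -0.48, and that of all tested probes -0.09. At 2-fold or more, 3 member probes were called, all higher in CP, where 16.4% of all probes were, and none was higher in V/SVZ, where 13.8% were. The tissues did not overlap in 11 of the 12 member probes and in 75.5% of all probes.

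**Figure D1:**
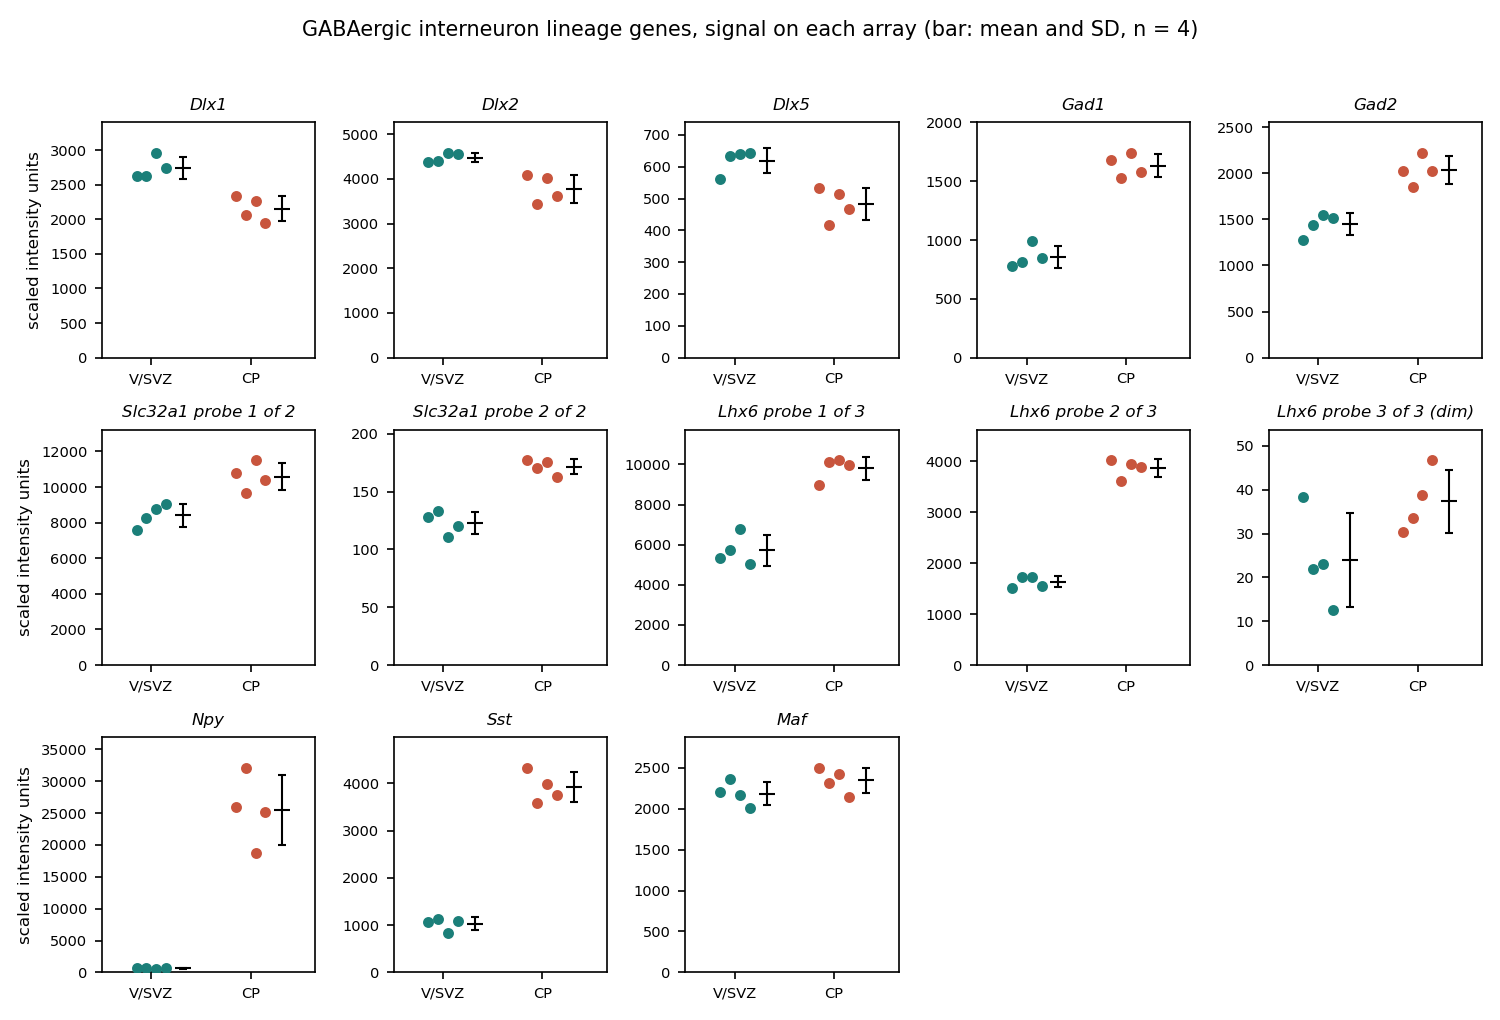
Signal of the 13 member probes on each array, in scaled intensity units on linear axes that start at 0, with V/SVZ arrays on the left and CP arrays on the right of each panel, in the order of their numbers; bars give the mean and SD (n = 4). Npy stands between 515 and 748 units in V/SVZ and between 18700 and 32100 in CP, while the tissues overlap for Maf.

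Values by array are processed signals scaled so that the 75th percentile of each array lies at 2335 intensity units, and each gives levels of its own probe only, since probes differ in how brightly they bind. All arrays of V/SVZ were on slide 1 and all of CP on slide 2, so slide and tissue cannot be told apart. After the same scaling, the 7 spike-in RNAs brighter than the dimmest tested member probe differed by -0.05 to 0.16 on the log2 scale between the slides. Before scaling, all 7 had higher mean log2 signals in V/SVZ, such as 11.63 against 11.26 for the one at 2780 units. Spike-ins cover labelling and hybridisation only. Tissue markers matched the labels: Pax6, Eomes, Sox2, Hes5, Neurog2 and Fabp7 were higher in V/SVZ (6 of 6), while Bcl11b, Tbr1, Mef2c and Camk2b were higher in CP (4 of 4).

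Among the factors of the lineage, the Dlx genes encode homeodomain proteins that act early. Dlx1 had 2620, 2620, 2960 and 2750 units in V/SVZ, against 2340, 2060, 2260 and 1950 units in CP. The tissues did not overlap, and the log2 difference was 0.35 ± 0.071 SE (n = 4 each, limma adjusted p = 0.00218). Its neighbour Dlx2 had 4380, 4400, 4580 and 4550 units in V/SVZ, against 4080, 3430, 4010 and 3610 units in CP. Here too every V/SVZ array lay above every CP array, by 0.25 ± 0.062 SE (limma adjusted p = 0.00628). Dlx5, which in the forebrain is switched on after Dlx1 and Dlx2, had 562, 633, 639 and 643 units in V/SVZ, against 532, 417, 513 and 467 units in CP. Its difference was 0.37 ± 0.085 SE (limma adjusted p = 0.00444), and the lowest V/SVZ array was close to the highest CP array. With their sign, the 3 differences fell between the 68.1 and the 72.5 percentile of all tested probes. By size alone they fell between the 26.8 and the 37 percentile. After scaling, spike-in RNAs at 357, 912 and 2780 units differed by 0.10, 0.14 and 0.16 in the same direction between the slides. The one at 13400 units differed by -0.01. The part of the slide in the Dlx differences was not tested. The paralogs were not shown to differ in how far they moved: the within-array difference between Dlx1 and Dlx2 changed by 0.10 ± 0.043 SE between tissues, and that between Dlx2 and Dlx5 by -0.12 ± 0.043 SE (exact permutation tests, two-sided, adjusted p = 0.0857 for each over 6 pairs of genes). After normexp background correction, the change between Dlx1 and Dlx2 was 0.16 and was called (exact permutation test, adjusted p = 0.0343).

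Lhx6, the factor of medial ganglionic eminence neurons, went the other way. Its probe A_55_P2005903 had 5330, 5750, 6770 and 5030 units in V/SVZ, against 8950, 10100, 10200 and 9970 units in CP. The tissues were well apart, with a log2 difference of -0.78 ± 0.095 SE (limma adjusted p = 9.88e-05). A second probe of the same transcript, A_55_P2094158, had 1520, 1720, 1730 and 1560 units in V/SVZ, against 4020, 3610, 3950 and 3890 units in CP. This probe gave -1.24 ± 0.058 SE (limma adjusted p = 2.60e-07), so both probes had the same direction, at 1.72-fold and 2.37-fold. Another probe, A_55_P2094149, designed on a different transcript variant, was not well above background in either tissue and was not tested. Whether the 2 tested probes differ was not tested. Maf, a factor that acts in the same interneuron lineage after Lhx6, had 2200, 2360, 2170 and 2010 units in V/SVZ, against 2500, 2310, 2430 and 2140 units in CP. The tissues overlapped, and the log2 difference of -0.10 ± 0.066 SE was not called (limma adjusted p = 0.181), with a 95% confidence interval from -0.26 to 0.05.

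**Figure D2:**
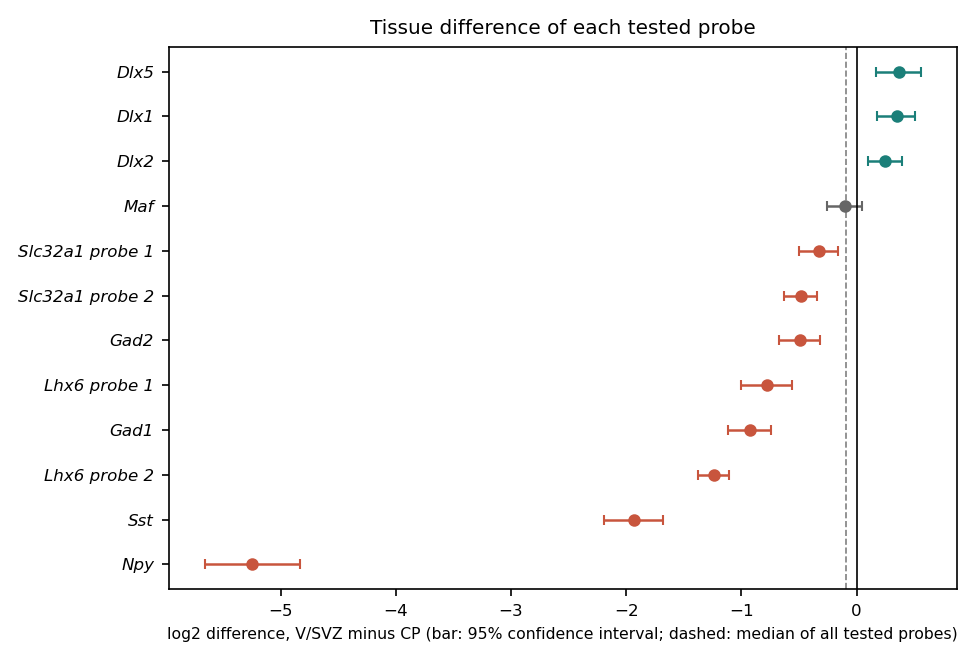
Log2 difference (V/SVZ minus CP) of each of the 12 tested member probes with its 95% confidence interval; teal is higher in V/SVZ, red higher in CP, grey not called, and probes of 1 gene are numbered in the order of the text. The Dlx genes lie right of 0, Maf spans it, and Npy lies far to the left at -5.25.

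Genes of the GABA phenotype were higher in CP. Gad1 had 776, 812, 990 and 851 units in V/SVZ, against 1680, 1530, 1740 and 1580 units in CP. This is a log2 difference of -0.93 ± 0.082 SE (limma adjusted p = 1.30e-05), or 1.91-fold higher in CP. Gad2 had 1280, 1440, 1550 and 1510 units in V/SVZ, against 2030, 1850, 2220 and 2030 units in CP. Its difference was smaller, at -0.49 ± 0.077 SE (limma adjusted p = 0.000449). The within-array difference between Gad1 and Gad2 changed by -0.44 ± 0.050 SE between tissues (exact permutation test, two-sided, p = 0.0286, the smallest that 70 splits allow, adjusted p = 0.0429). That test reassigns arrays freely. With same-numbered arrays of the tissues taken as pairs, the exact test by sign flips over 4 pairs cannot go below p = 0.125, and none of the 6 comparisons between genes was called by it. The change was then negative in 4 of 4 array pairs for Gad1 against Gad2 (adjusted p = 0.188).

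Slc32a1 had 7590, 8280, 8770 and 9050 units on probe A_52_P138926 in V/SVZ, against 10800, 9670, 11500 and 10400 units in CP. The tissues did not overlap, and the difference was -0.33 ± 0.073 SE (limma adjusted p = 0.00312). After normexp background correction, it was -0.14 and no longer called (limma adjusted p = 0.152). Its second probe, A_55_P1985286, had 128, 133, 111 and 120 units in V/SVZ, against 177, 170, 176 and 163 units in CP. That probe gave -0.48 ± 0.063 SE (limma adjusted p = 0.000162) and kept its call after normexp, at -0.34. The difference between the 2 probes was not tested. The within-array difference between the brighter Slc32a1 probe and Gad1 changed by 0.60 ± 0.058 SE (exact permutation test, two-sided, p = 0.0286, adjusted p = 0.0429). It was positive in 4 of 4 array pairs, and not called by sign flips within pairs (exact test, adjusted p = 0.188).

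The neuropeptide genes had the largest differences. Sst encodes somatostatin, the peptide of a class of interneurons that comes from the medial ganglionic eminence. It had 1070, 1130, 828 and 1090 units in V/SVZ, against 4330, 3590, 3990 and 3760 units in CP. Every CP array was more than 3 times as bright as every V/SVZ array, and the log2 difference was -1.93 ± 0.11 SE (limma adjusted p = 7.85e-07). Sst is the only member spotted 10 times on each array, of which 9 or 10 spots were kept. The coefficient of variation between these spots was 1.93% to 3.99% on V/SVZ arrays and 2.73% to 4.64% on CP arrays, so the low value on V/SVZ 3 (spots from 801 to 893 units) was not the reading of 1 spot.

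Npy encodes neuropeptide Y, which many somatostatin interneurons also make. It had 691, 748, 515 and 701 units in V/SVZ, against 26000, 32100, 18700 and 25100 units in CP. Its log2 difference of -5.25 ± 0.18 SE (limma adjusted p = 3.85e-08) was 38.0-fold, with a 95% confidence interval from 28.4-fold to 50.6-fold. Only 0.411% of all tested probes had a difference this far towards CP or further. The difference of Npy exceeded that of Sst by -3.32 ± 0.19 SE (exact permutation test, two-sided, p = 0.0286, adjusted p = 0.0429). That of Sst exceeded that of Lhx6 on its brighter probe A_55_P2005903 by -1.15 ± 0.21 SE (exact permutation test, p = 0.0286, adjusted p = 0.0429). Against the other tested Lhx6 probe, A_55_P2094158, the excess was -0.69 ± 0.14 SE (exact permutation test, adjusted p = 0.0429). On the brighter Lhx6 probe, both excesses had the same sign in 4 of 4 array pairs, and neither was called by sign flips within pairs (exact test, adjusted p = 0.188).

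Arrays of 1 tissue also differed from each other. On V/SVZ 3, Npy deviated by -0.35 and Sst by -0.31 from their V/SVZ means on the log2 scale, while Lhx6 deviated by 0.25 and Gad1 by 0.21. On CP 3, Npy deviated by -0.42 from its CP mean, and on CP 2 by 0.36, where the other 9 members ranged from -0.20 to 0.04. V/SVZ 1 was the lowest V/SVZ array for 5 of the 10 members, and CP 2 the lowest CP array for 6. Over all tested probes the median deviation of an array was between -0.02 and 0.01. These deviations are small beside the tissue differences of Npy and Sst. They reach 0.25 against -0.78 for Lhx6 on its brighter probe, and 0.21 against -0.93 for Gad1. For Gad2 they reach -0.17 against -0.49, and for Slc32a1 on its brighter probe -0.15 against -0.33. For the Dlx genes they reach -0.20 against tissue differences of 0.25 to 0.37.

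**Figure D3:**
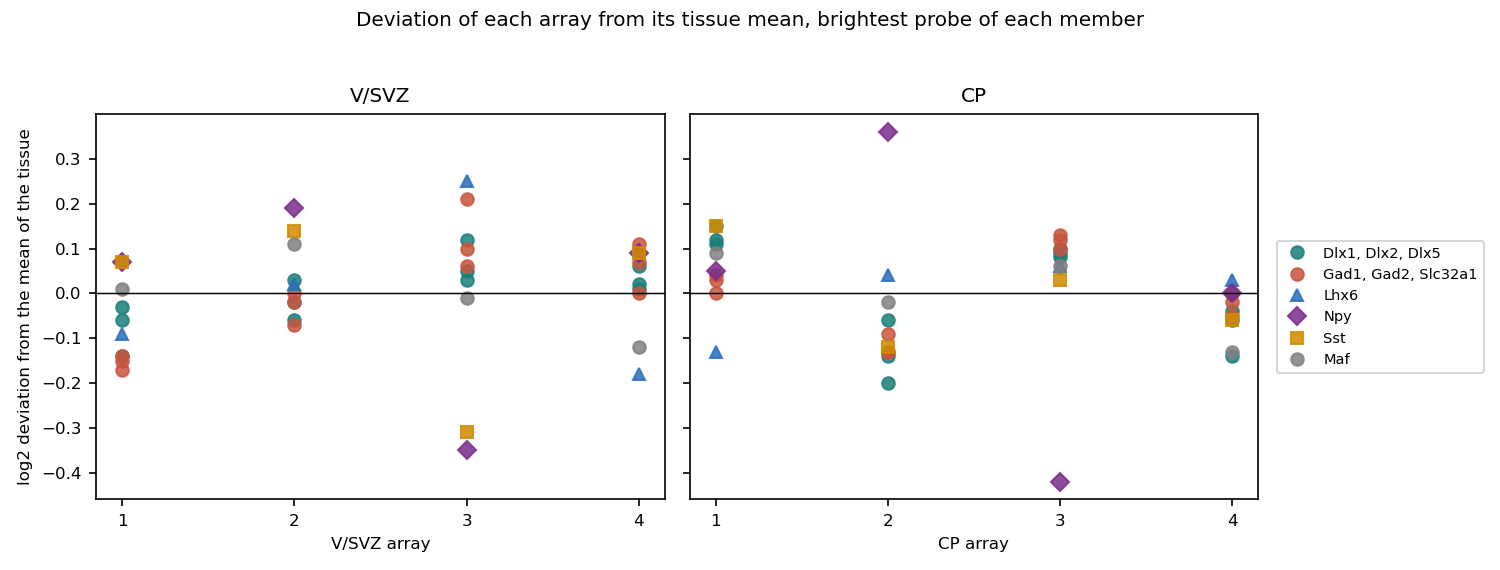
Log2 deviation of each array from the mean of its tissue (left V/SVZ, right CP), for the brightest tested probe of each of the 10 members. Npy (diamonds) and Sst (squares) lie lowest on V/SVZ 3, where Lhx6 (triangle) lies highest, and on CP arrays Npy has the widest spread, from -0.42 to 0.36.

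The genes whose profile over the 8 arrays was nearest were found by the root mean square difference of log2 values, each centred on its own mean, among 13795 named genes. Nearest to Npy were Ablim3 (0.19) and Gnal (0.22), and nearest to Sst were Neurl1a (0.10) and Mgst3 (0.10). Nearest to Gad1 were Zfp74 (0.05) and Tasp1 (0.06), to Lhx6 Slc17a5 (0.05) and Rps23rg1 (0.05), and to Dlx2 Igbp1 (0.04) and Dynlt1c (0.04). All these profiles are read on the same 8 arrays of 2 tissues, so genes with a tissue difference of like size come out near each other.

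Other genes of the interneuron programme went both ways. Lists are counted by the brightest tested probe of each gene, beside 35% of all genes called with V/SVZ higher and 44.6% with CP higher. Of 18 further interneuron and ventral telencephalon transcription factor genes, 13 were tested, of which 8 were higher in V/SVZ, the other 5 in CP, with a median log2 difference of 0.62. Sp8, a zinc finger factor of lateral and caudal ganglionic eminence lineages that cortical progenitors also express, was 15.6-fold higher in V/SVZ (3.96 on this probe and 0.80 on a second). Zeb2, a factor that directs young interneurons towards the cortex and that cortical neurons also express, was 3.08-fold higher in CP (-1.62 on this probe and -2.65 on a second). Nkx2-1, Nkx6-2 and Lhx8, factors of the medial ganglionic eminence and neighbouring ventral regions, did not stand well above background on any of the 8 arrays.

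Genes of GABA uptake and breakdown were tested in 5 of 6 cases, of which 3 were higher in V/SVZ, led by Aldh5a1, an enzyme of GABA breakdown (2.59-fold), and the other 2 in CP. Of 17 genes of interneuron subtypes, 11 were tested, of which 4 were higher in V/SVZ, the other 7 in CP. Crh, the gene of corticotropin-releasing hormone, was at least 7.81-fold higher in V/SVZ, setting its V/SVZ mean against the detection limit of the CP arrays. Reln, which Cajal-Retzius cells as well as interneurons express, had 18.6 to 193 units in V/SVZ, where 2 of 4 arrays were well above background, and 884 to 1160 units in CP. Reln was higher in CP (-4.39 ± 0.70 SE, limma adjusted p = 0.000517), and without V/SVZ 1, its brightest V/SVZ array, the difference was -5.06, so its fold is not firm. Calb1, Vip, Crhbp, Lamp5 and Elfn1 passed the background flag on none of the 8 arrays.

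Of 14 migration genes, 13 were tested: 6 were higher in V/SVZ, 5 higher in CP and 2 not called. Nrp2, a semaphorin receptor gene, was 10.2-fold higher in V/SVZ, and Nrg3, a ligand gene of the receptor Erbb4, was higher in CP. Nrg3 had 25.3 to 56.7 units in V/SVZ, with 2 of 4 arrays well above background, and 440 to 508 units in CP (-3.69 ± 0.22 SE, limma adjusted p = 1.30e-06). Sema3a, a ligand gene of neuropilin receptors, was the brightest gene not called (0.04, limma adjusted p = 0.389), though its dimmer probe gave 0.33. The probe of Erbb4 itself did not pass the background flag on any of them.

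**Figure D4:**
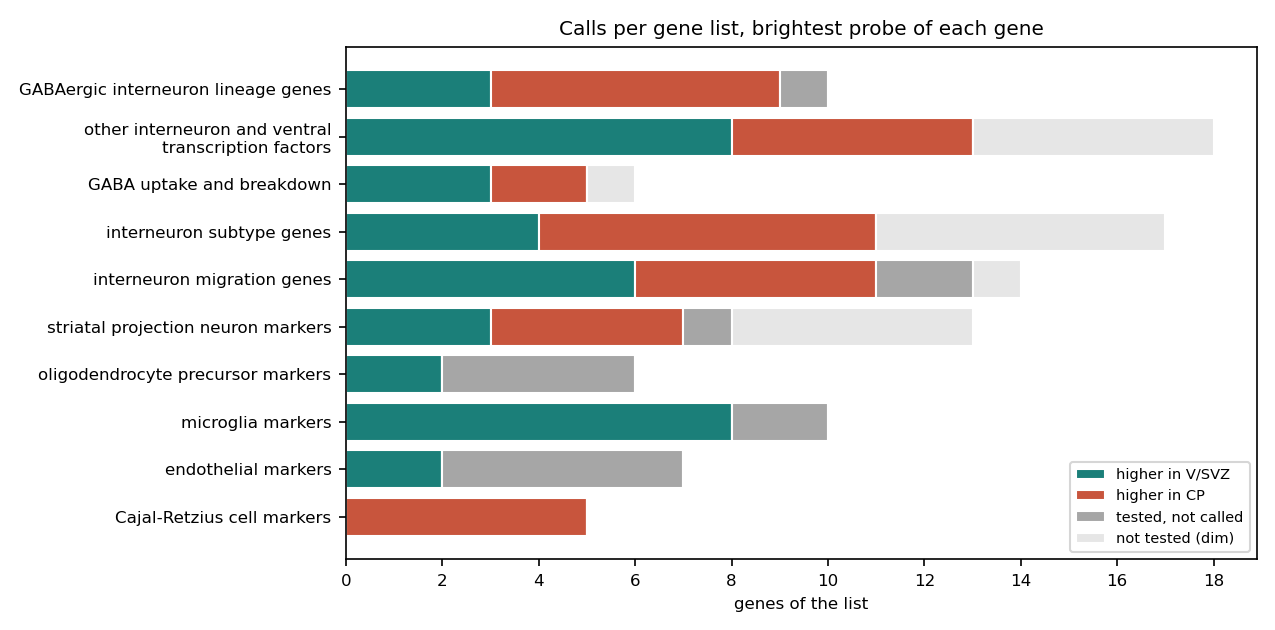
Number of genes in each list called higher in V/SVZ, called higher in CP, tested but not called, and not tested, by the brightest tested probe of each gene. The lineage genes divide into 3, 6 and 1, whereas 8 of 10 microglia markers are higher in V/SVZ and 5 of 5 Cajal-Retzius markers higher in CP.

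Markers of other cells that the dissections could hold were read beside these results, as summed scaled intensities on each array. Cajal-Retzius cell markers were higher in CP in 5 of 5 genes, led by Lhx5 (at least 44.8-fold), and their sum was 266 to 589 units in V/SVZ and 2900 to 3310 units in CP. Striatal projection neuron markers were tested in 8 of 13 genes, of which 3 were higher in V/SVZ (Rarb, 2.49-fold), 4 higher in CP (Drd1, at least 24.6-fold) and Adora2a not called, and summed to 6590 to 7880 units in V/SVZ and 17100 to 21300 units in CP. Their defining genes Isl1, Drd2 and Pdyn were below that flag on all 8 arrays. The Cajal-Retzius and striatal sums were higher in CP, as Npy and Sst were. The part of these cells in the Npy and Sst results was not tested.

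Microglia also express Maf. Of 10 microglia markers, 8 were higher in V/SVZ, P2ry12 by 5.22-fold, and 2 were not called, Aif1 the brighter (0.45), with sums of 22000 to 31500 units in V/SVZ and 6800 to 9480 units in CP. Oligodendrocyte precursor markers, some of which ventral progenitors share, summed to 2720 to 3530 units in V/SVZ and 2100 to 2630 units in CP. Of these, 2 of 6 were higher in V/SVZ, led by Olig2 (2.33-fold), and the brightest of the 4 not called was Cspg4 (-0.12). Endothelial markers summed to 17000 to 18800 units in V/SVZ and 14400 to 16000 units in CP, with 2 of 7 higher in V/SVZ, led by Kdr (1.25-fold, and -0.06 on a second probe), and Flt1 the brightest of the 5 not called (-0.06). The part of these cells in the values of Maf and the Dlx genes was not tested.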

How the data were processed

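Total RNA was amplified, labelled with Cy3 and hybridised to 1-colour arrays, per the labels' protocols. The deposited intensity values were made with Agilent Feature Extraction 10.7.1.1, per the file headers: the processed signal is background-subtracted, statistics of a spatial detrend are recorded, and median spot and background signals stand beside it. The sources used here give no scaling between arrays. The authors also deposited log2 values for 17163 gene probes, with a median of about 0 over the 8 columns of each row. Base and direction were inferred from the scanner arrays, and their filter and scaling are unknown. The column medians were -0.03 to 0.02. Each column matched the array of its own number but of the opposite tissue (correlation with its own array -0.98 to -0.97), so the table served only as an alternative, direction turned. No column was left unmapped (0).

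Groups came from the titles. The share of gene probes well above background ran from 58.4% to 62.9% per array, and the number of arrays limits the precision. Replicate spots were averaged as log2 values without control and outlier spots (142 to 258 left out per array), and the array's 75th percentile was subtracted. The test took in probes that passed the scanner's background flag on all 4 arrays of a tissue and that had a value on at least 3 of each. Of 39429 probes, 26761 were named through RefSeq (GRCm38.p6), and the array headers name build mm9. Differences were fitted per probe with lmFit and eBayes (R 4.3.3, limma 3.58.1), and p-values were adjusted by Benjamini-Hochberg across all tested probes. A fold against a tissue where no array detected the probe is a bound against the dimmest detected probes, written "at least". The procedure was tested on simulated data. Alternatives were other scalings, normexp (offset 50, on median signals, since the files hold no mean signal), filters, choice of probe, replicate block, variance models, the deposited table and each array left out.

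Members and lists were chosen with earlier results of these data known. Named genes were the members with every probe, the tissue markers, the called gene with the largest difference in each direction per list, the brightest gene not called, the markers not detected on any array, and the 2 nearest profiles to Dlx2, Gad1, Lhx6, Sst and Npy. For 1 gene that this rule names, the result is not reported here. Same-numbered arrays of the tissues held the same position on their slides. Their deviations had correlations over probes of 0.34, 0.31, 0.12 and 0.21 for numbers 1 to 4. Those of arrays of unlike number ran from -0.38 to 0.17, so number 3 did not stand apart. The numbers were taken as pairs in the fit with a replicate block.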

Additional observations from a re-analysis of the deposited data

Results flagged for a closer look

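Of 26 groups of 4 arrays examined (13 member probes in 2 tissues), 3 held an array far from the others, where chance gives about 1 in 20. Dlx5 had 562 units on V/SVZ 1, against 633 to 643 on the other V/SVZ arrays, and the gap made up 0.88 of the log2 range. Lhx6, on probe A_55_P2005903, had 8950 units on CP 1, against 9970 to 10200 on the other CP arrays (0.85 of the range). Sst had 828 units on V/SVZ 3, against 1070 to 1130 on the other V/SVZ arrays (0.83 of the range). Leaving out any 1 array ended no call of these probes.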

How the results depend on the processing

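When each member probe's difference was set against each alternative, 231 values kept their direction and their side of the threshold. The exception was Slc32a1 on probe A_52_P138926, at -0.14 after normexp, and the cause was not tested. The count of member probes higher in CP was 4 in the authors' deposited table, which holds 8 of the 13 member probes, so fewer were tested. With its columns as named, all 8 had the opposite sign. In the limma fit, the replicate block changed no call of a member probe, with Slc32a1 at adjusted p = 0.00717 (limma), and Npy ran from -5.39 to -5.01 over all alternatives. The change of Dlx1 against Dlx2 was 0.16 after normexp and then called (exact permutation, adjusted p = 0.0343). In 2 alternatives added after seeing the data, sign flips within replicate pairs (replicate block) left the values at -0.44 for Gad1 against Gad2, 0.60 for Slc32a1 against Gad1, -1.15 for Sst against Lhx6 and -3.32 for Npy against Sst but ended all 4 calls, since 4 pairs cannot reach the threshold, and the second Lhx6 probe gave -0.69 for Sst against Lhx6.

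Counts per list moved in 25 comparisons with an alternative, and 455 stayed within 1.5 times. After normexp, 1 oligodendrocyte precursor, 1 microglia and 2 endothelial markers were higher in CP. Among probes well above background on all 8 arrays, subtype genes were 2 higher in V/SVZ and 4 in CP, and 2 striatal, 1 endothelial and 1 Cajal-Retzius markers were higher in CP, since fewer genes were tested. With the mean of probes, 1 endothelial marker was higher in V/SVZ. With the replicate block, 1 oligodendrocyte precursor, 1 microglia and 1 endothelial marker were higher in CP, and with array weights 1 endothelial marker. In the deposited table, 3 lineage genes were higher in CP, subtype genes were 2 higher in V/SVZ and 1 in CP, 0 oligodendrocyte precursor and 2 microglia markers were higher in V/SVZ, and 0 striatal, 1 endothelial and 2 Cajal-Retzius markers were higher in CP. With each array left out, oligodendrocyte precursor and endothelial markers higher in CP ranged from 0 to 1: without V/SVZ replicate 3 (endothelial), CP replicate 1 (both) or CP replicate 4 (oligodendrocyte precursor), 1 was called. The 3 spike-ins dimmer than every tested member probe differed by -0.45 to 0.17 between slides after scaling.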
